A study of Rattus norvegicus with 6 samples.

Results

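The genes described here are the very long ones, those whose models in the deposited assembly extend over more than 250 kb of the rat genome Rnor_5.0. A model is a locus together with a gene name, and its span is the highest exon end minus the lowest exon start over all of its transcripts. Of 24579 models in the assembly 695 passed this limit. With reads summed over the transcripts of a model, 591 of the 695 had at least 10 reads in 3 or more libraries, and the remaining 104 did not. A symbol was lacking for 41 of the 695, and these are counted but not named. The measurements come from primary beta cells of rat pancreas, purified by flow cytometric sorting in 3 batches. From each batch, cells were transfected for 16 h with Nova1 siRNA at 30 nM or with a non-targeting control siRNA at the same dose, and left to recover for 48 h. All cells, the controls included, were thus sorted, cultured and transfected with a lipid reagent. This gives 3 knockdown and 3 control libraries of poly(A) RNA.

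A long gene is mostly intron. The polymerase has to copy the whole span before a full-length transcript exists, and the introns have to be removed correctly over great distances, so such genes depend heavily on splicing. In mammals they encode many cell adhesion molecules, axon guidance receptors, ion channels, synaptic scaffolds and signalling enzymes, and many of them are best known from neurons. Beta cells share part of this neuronal repertoire, including the machinery of regulated secretion. Nova1 is an RNA-binding protein of neurons that directs alternative splicing, and the series asks what it does in beta cells.

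The libraries held about 130251000, 95394000 and 146453000 assigned reads in knockdown batches 1, 2 and 3, and about 292432000, 122637000 and 199931000 in the control batches, so the control was the deeper library in every batch. Nova1 itself, whose model spans 127 kb and lies outside the long set, had 7.76, 10.2 and 9.43 CPM in knockdown libraries (reads scaled to library size), against 20.6, 21.5 and 17.4 CPM in control libraries. Its log2 fold change was -1.12 (SE 0.11, limma adjusted p = 0.038). In RPKM (reads scaled to transcript length in kb and to library size), which depends on how reads were divided among its transcripts, Nova1 overlapped between the groups, with 1.38, 2.38 and 1.81 in knockdown libraries and 5.06, 2.83 and 2.03 in control libraries. Batch 2 stood apart in both treatments, with insulin transcripts at 9.84% of reads in the knockdown library and 13.2% in the control library, against 20.0% to 21.7% in the other 4 libraries. Markers of other cells were present. The median log2 fold change was 0.96 over 11 immune markers, 0.32 over 12 stellate cell and fibroblast markers and -0.39 over 15 acinar markers, against -0.04 over 14 beta cell markers. Over 10 markers of other islet endocrine cells it was 0.15, with 8 above 0. Their summed RPKM was 7457, 15865 and 10242 in knockdown libraries, against 5607, 14590 and 7931 in control libraries, higher with knockdown in each batch and highest in batch 2 in both treatments. Most of this sum was Gcg, with 6466, 14249 and 9214 RPKM in knockdown libraries, against 4728, 12641 and 7084 RPKM in control libraries. In RPKM, Pyy was lower with knockdown in each batch, and Ppy and Sst were lower in batch 2. Summed RPKM over the tested immune markers was 13.7 to 25.9 in knockdown libraries and 14.4 to 17.3 in control libraries. The median level of the immune markers was low, at 0.20 RPKM, and 9 of the 11 had a log2 fold change above 0. C1qa had 7.95, 7.04 and 7.30 RPKM in knockdown libraries, against 10.6, 9.65 and 9.67 RPKM in control libraries. For the stellate cell and fibroblast markers the median log2 ratio was 0.56, 0.68 and -0.05 in batches 1, 2 and 3. The part of these cells in the results below was not tested. In such bulk samples fewer cells of a type and less RNA per cell cannot be told apart. Whether the batches were separate animals is not stated in the labels, so a p-value refers to the spread among these 3 batches, which may be technical.

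Promoters are shown for 4 long genes that later results turn on, namely Pcsk2, the most abundant of them, Gabrb1, which was higher in knockdown libraries, and Reps2 and Slc9a9, which were lower. Each is the window from 250 bases before to 50 after the RefSeq gene start on GRCr8, a later build than that of the assembly, read 5′ to 3′ on the gene's strand. Capitals mark the GC box GGGCGG and the CCAAT box on either strand, and GC boxes may overlap one another.
Pcsk2: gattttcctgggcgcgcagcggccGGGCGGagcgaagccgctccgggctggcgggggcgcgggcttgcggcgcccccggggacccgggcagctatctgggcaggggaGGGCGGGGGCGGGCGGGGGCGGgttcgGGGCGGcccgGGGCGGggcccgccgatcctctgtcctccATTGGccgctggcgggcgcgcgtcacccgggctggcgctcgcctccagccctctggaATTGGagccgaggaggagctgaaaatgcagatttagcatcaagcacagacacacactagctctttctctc
Reps2: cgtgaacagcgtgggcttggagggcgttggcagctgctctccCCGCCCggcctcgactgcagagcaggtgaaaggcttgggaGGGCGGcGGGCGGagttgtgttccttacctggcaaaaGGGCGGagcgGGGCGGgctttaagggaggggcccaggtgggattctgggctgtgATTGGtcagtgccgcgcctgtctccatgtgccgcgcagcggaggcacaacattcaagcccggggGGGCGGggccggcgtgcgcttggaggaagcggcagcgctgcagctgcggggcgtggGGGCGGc
Gabrb1: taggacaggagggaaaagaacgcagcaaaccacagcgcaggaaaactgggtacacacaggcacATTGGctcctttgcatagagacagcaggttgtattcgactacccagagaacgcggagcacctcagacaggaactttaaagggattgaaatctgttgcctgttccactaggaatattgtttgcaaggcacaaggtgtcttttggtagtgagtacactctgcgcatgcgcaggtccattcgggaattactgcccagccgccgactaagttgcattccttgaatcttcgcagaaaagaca
Slc9a9: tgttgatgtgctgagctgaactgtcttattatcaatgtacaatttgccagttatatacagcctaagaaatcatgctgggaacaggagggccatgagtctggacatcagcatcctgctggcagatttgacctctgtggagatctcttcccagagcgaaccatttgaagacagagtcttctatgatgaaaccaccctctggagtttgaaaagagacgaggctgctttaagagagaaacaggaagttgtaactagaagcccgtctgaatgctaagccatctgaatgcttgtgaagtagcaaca
The Pcsk2 window (chr3:151333688-151333987, plus strand) held 7 GC boxes, 2 CCAAT boxes and 34 CG dinucleotides, with a G+C content of 73.3%. The Reps2 window (chrX:35681013-35681312, plus strand) was of the same kind, with 7 GC boxes and 27 CG dinucleotides. Gabrb1 (chr14:36902844-36903143, minus strand) had 1 CCAAT box and 11 CG dinucleotides. Slc9a9 (chr8:104112285-104112584, plus strand) held neither motif and 3 CG dinucleotides, at a G+C content of 44.7%. RefSeq windows were found for 432 of the 583 long models that entered the tests. Their median G+C content was 63.0%, against 61.0% over 10627 promoters of all genes tested. A GC box was present in 57.6% of the long genes' windows and in 62.3% over all genes tested. A CCAAT box was present in 33.1% and 37.7%, a TATA box (TATAAA) in 4.63% and 6.66%, and a cyclic AMP response element (TGACGTCA) in 2.78% and 3.19%. Over all 33469 RefSeq windows the GC box was found in 33.1%.

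The long models were long mainly through their introns, though their RNA was longer as well. Among the 583 that passed the read filter of the gene-level test, the median span was 356 kb and the median exonic length, weighted over transcripts, was 4.29 kb. The other 15400 genes tested had a median span of 18.2 kb and a median exonic length of 2.22 kb. The long models had a median of 17 exons in their longest exon chain and 5 transcripts, against 8 exons and 2 transcripts in the other genes. Their longest intron had a median of 151 kb, against 5.995 kb in the others, and made up a median of 38.4% of the span, against 31.6%. In 178 of the 583 a single intron covered at least 50% of the span. The models were spread over all 21 chromosomes of the assembly that carried them, from 1.54% of the models on chromosome 20 to 4.53% on chromosome 13. Another model shared over 5% of the exon bases in 73 of the 583, where reads could not be divided with certainty.

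The level of the long genes ranged widely. Their median RPKM over 6 libraries was 2.89, against 5.08 in the other genes. Of the 583, 382 reached 1 RPKM, 125 reached 10 RPKM and 5 reached 100 RPKM, while 54 stayed under 0.1 RPKM. Together the long models took 2.15%, 2.86% and 2.20% of reads in knockdown libraries 1, 2 and 3, and 2.18%, 2.58% and 1.96% in the control libraries. With insulin reads left out of the total, the shares were 2.73%, 3.17% and 2.77% in knockdown libraries and 2.72%, 2.97% and 2.50% in control libraries. The share was highest in batch 2 in both treatments, and the groups overlapped.

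**Figure D1:**
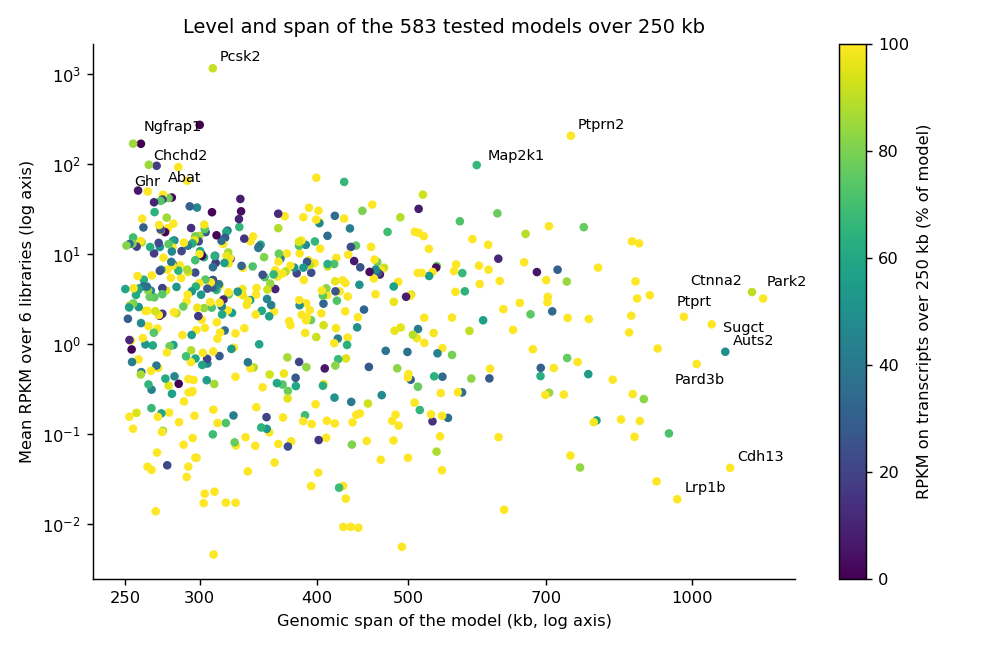
Each point is 1 of the 583 tested models over 250 kb, with its genomic span in kb on a log axis and its mean RPKM over 6 libraries on a log axis. Colour gives the percentage of the model's RPKM carried by transcripts that themselves span over 250 kb, and the labelled points are the named models with the highest level or the greatest span, with Pcsk2 at the top and Park2 at the right.

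The most abundant long gene was Pcsk2 (chromosome 3, 144058423 to 144368299, plus strand), which encodes a proprotein convertase that processes proinsulin in secretory granules. It had 1181, 1058 and 1305 RPKM in knockdown libraries, against 1146, 992 and 1297 RPKM in control libraries. Batch 3 was highest and batch 2 lowest in each group, and the groups overlapped (log2 fold change 0.02, SE 0.05, limma adjusted p = 0.82). Pcsk2 alone accounted for 11.7% to 17.3% of the long genes' reads in knockdown libraries and 11.8% to 18.9% in control libraries. Ptprn2 (chromosome 6, 153312597 to 154056676, plus strand) encodes phogrin, a protein of the insulin granule membrane. It had 204, 205 and 199.9 RPKM in knockdown libraries, against 227, 202 and 204 RPKM in control libraries. Its level was thus nearly even across libraries although it spans 744 kb, and all of its RPKM lay on transcripts over 250 kb.

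Some of the other abundant members owe their span to a distant end or to an odd model. Map2k1, the kinase MEK1, spanned 591 kb through an intron of 560 kb, carried 66.5% of its RPKM on transcripts over 250 kb and shared 45.5% of its exon bases with another model. Ngfrap1, a small adaptor of a neurotrophin receptor, had a 254 kb intron in a new transcript of 701 nt that carried 84.8% of its RPKM. Chchd2, a mitochondrial protein, had no transcript over 250 kb and only joins a pair of distant copies of 663 nt, each with close to 50% of the RPKM, so it is a long model by name only. Ghr, the growth hormone receptor, spanned 265 kb and averaged 82.1 ± 18.1 RPKM in knockdown libraries and 115 ± 28.7 RPKM in control libraries (SD, n = 3 each). Abat, the enzyme that breaks down the transmitter GABA, averaged 101 ± 7.58 and 91.5 ± 14.3 RPKM in knockdown and control libraries, with 18.6% on transcripts over 250 kb. None of these 5 passed the gene-level test. Ghr did so after the correction for genomic span described below (log2 fold change -0.42, limma adjusted p = 0.036).

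At the other end of the range stood the longest spans. Park2 (parkin, a ubiquitin ligase) spanned 1191 kb, Ctnna2 (a neuronal alpha catenin) 1159 kb, Cdh13 (a membrane-anchored cadherin) 1099 kb, Auts2 (a nuclear regulator of neuronal development) 1086 kb, Sugct (a mitochondrial transferase) 1050 kb and Pard3b (a polarity protein) 1012 kb. These 6 were the only models over 1000 kb. Park2 had 4.64, 3.58 and 2.69 RPKM in knockdown libraries, against 2.01, 2.46 and 3.995 RPKM in control libraries. Ctnna2 had 3.00, 5.37 and 3.15 RPKM in knockdown libraries, against 3.65, 5.36 and 2.27 RPKM in control libraries, with batch 2 highest in each group. The groups overlapped for both genes. Cdh13 and, at 965 kb, the lipoprotein receptor Lrp1b stayed near the floor, with group means of 0.016 to 0.048 RPKM. Across the 583 models the rank correlation of level with span was -0.15, against 0.02 across all 15983 genes tested, as a description over genes that share libraries.

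A long span did not mean that the RNA measured was a long one. Over the 591 models with reads, transcripts that themselves spanned over 250 kb carried a median of 91.9% of the RPKM. In 257 models they carried all of it to within 0.5 percentage points, in 134 less than 50% and in 15 less than 5%. An annotated transcript over 250 kb was present in 395 models, and 195 rested on newly assembled ones alone. Ntrk2, the receptor for brain-derived neurotrophic factor, was at 32.1 ± 14.4 RPKM in knockdown and 26.5 ± 4.88 RPKM in control libraries, but only 0.87% of it lay on transcripts over 250 kb. In scaled reads Ntrk2 was lower with knockdown in each batch. It had 168, 207 and 165 CPM in knockdown libraries, against 177, 213 and 169 CPM in control libraries (log2 fold change -0.05). Over the 6 libraries together the leading Ntrk2 transcript was a new one of 13 exons over 130 kb, but in knockdown batch 2 and control batch 1 it held 2.03% and 5.42% and other transcripts led. The axon guidance receptor Robo2 had 8.48% on long transcripts, the microtubule protein Map2 5.75%, the nuclear cofactor Rere 3.36% and Arhgap24, a GTPase-activating protein, 1.10%. In Arhgap24 a transcript of 58.6 kb carried 56.2% of the RPKM and one of 49.0 kb 25.1%. Among the 293 models with 5% to 95% on long transcripts, the median share was 59.8%, 57.0% and 59.9% in knockdown libraries and 55.1%, 62.0% and 57.7% in control libraries, with overlapping groups.

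The models next to the limit varied in level on either side of it. Just inside were Xrcc4, a DNA end-joining factor, at 250159 bp, and Ncoa1, a nuclear receptor coactivator, at 250846 bp, besides a model with no symbol. Just outside were Nyap2, a neuronal signalling adaptor, at 249970 bp, Wdr70, a WD repeat protein, at 249873 bp, and Csmd2, a large membrane protein, at 249641 bp. Mean levels in knockdown libraries were 4.43 RPKM for Xrcc4 and 13.2 RPKM for Ncoa1 inside, and 0.579, 4.37 and 0.377 RPKM for Nyap2, Wdr70 and Csmd2 outside.

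The comparison of knockdown with control libraries asks which long genes change when Nova1 is reduced. Of the 583 long models, 10 passed an adjusted p of 0.05 in limma, with 5 higher and 5 lower in knockdown libraries. That is 1.72% of the long models, and 1.71% of all 15983 genes tested passed. For the higher genes the shares were 0.858% of the long models against 0.513% of all genes, and for the lower genes 0.858% against 1.20%. At an unadjusted p below 0.05 there were 183 of 583 (31.4%), against 23.9% of all genes. At the adjusted threshold the share called in either direction was at the background, while the unadjusted share was above it. Without the batch term, which pairs the libraries, limma called 0 long models and 0 of all genes. At an unadjusted p below 0.05 there were then 26 long models and 521 of all genes. All of the adjusted p-values lay between 0.036 and the threshold, and no call reached a 2-fold change. After a correction of each library for exonic length, 28 long models were called (4.80%, against 3.89% of all genes), 11 higher and 17 lower, among them 9 of the 10. Over all genes that correction gave 177 higher and 445 lower. After a like correction for genomic span, 22 were called (3.77%, against 2.48% of all genes), 3 higher and 19 lower. Over all genes it gave 107 higher and 290 lower, so most calls were lower there as well.

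Gabrb1 and Fras1 rose most among the 5 higher genes. Gabrb1 (chromosome 14, 38440867 to 38924251, minus strand), the beta 1 subunit of the GABA-gated chloride channel, had 18.7, 25.005 and 22.1 CPM in knockdown libraries, against 13.0, 15.05 and 13.2 CPM in control libraries. All knockdown values lay above all control values (log2 fold change 0.67, SE 0.07, limma adjusted p = 0.039). Fras1 (chromosome 14, 14398896 to 14798024, minus strand), an extracellular matrix protein of basement membranes with 72 exons in its longest chain, had 19.5, 19.7 and 18.7 CPM in knockdown libraries, against 13.2, 11.4 and 9.27 CPM in control libraries. The groups did not overlap, and the knockdown values were the tighter ones (log2 fold change 0.78, SE 0.10, limma adjusted p = 0.045).

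Astn1 (chromosome 13, 80970205 to 81285224), a membrane protein of migrating neurons, had 26.7, 23.0 and 23.5 CPM in knockdown libraries, against 20.7, 15.6 and 16.1 CPM in control libraries. Prkce (chromosome 6, 9404013 to 9886379), the epsilon form of protein kinase C, had 24.4, 24.9 and 23.9 CPM in knockdown libraries, against 19.1, 19.1 and 18.7 CPM in control libraries. Both groups of Prkce were tight and apart. Only 56.3% of its RPKM lay on transcripts over 250 kb, at 58.0%, 85.3% and 71.9% in knockdown and 43.2%, 35.4% and 38.0% in control libraries. None of its 3 transcripts passed the test of shares described below (limma diffSplice adjusted p = 0.29 to 0.96). Megf11 (chromosome 8, 69568313 to 69893077), a membrane protein with EGF-like repeats that spaces retinal neurons in mouse, had 18.3, 18.6 and 15.8 CPM in knockdown libraries, against 13.5, 14.7 and 11.8 CPM in control libraries. Its scaled reads did not overlap between the groups, but its RPKM did, with 2.27 to 2.58 in knockdown and 1.72 to 2.39 in control libraries. Of the Megf11 RPKM, 55.9% lay on transcripts over 250 kb. The log2 fold changes were 0.48 for Astn1, 0.36 for Prkce and 0.40 for Megf11, each with a limma adjusted p of 0.046.

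Slc9a9 and Myo1d fell most among the 5 lower genes. Slc9a9 (chromosome 8, 101786773 to 102487361, plus strand), a sodium-proton exchanger of endosomes, had 11.9, 11.8 and 15.2 CPM in knockdown libraries, against 26.5, 17.7 and 29.9 CPM in control libraries. The groups did not overlap, with the control of batch 2 nearest to the knockdown values (log2 fold change -0.93, SE 0.11, limma adjusted p = 0.042). At 701 kb it was the only call over 500 kb. Myo1d (chromosome 10, 67520648 to 67811744, minus strand), a single-headed myosin motor of membranes, was the most abundant call, with 47.8, 47.3 and 53.9 RPKM in knockdown libraries, against 90.9, 71.2 and 82.6 RPKM in control libraries. Every knockdown value lay below every control value (log2 fold change -0.77, SE 0.07, limma adjusted p = 0.036).

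Reps2 (chromosome X, 34042599 to 34406805), an adaptor of receptor endocytosis, had 41.5, 52.1 and 54.7 CPM in knockdown libraries, against 82.5, 77.7 and 85.6 CPM in control libraries. WDR7 (chromosome 18, 58314176 to 58614580), a WD repeat protein that binds the vacuolar proton pump, had 38.0, 37.0 and 41.0 CPM in knockdown libraries, against 67.8, 54.2 and 60.4 CPM in control libraries. Only 58.8% of the WDR7 RPKM lay on transcripts over 250 kb, and 41.2% on a form of 3 exons over 12.3 kb. Slc39a11 (chromosome 10, 101428686 to 101847875), a zinc transporter, had 17.8, 20.6 and 21.4 CPM in knockdown libraries, against 28.6, 30.2 and 31.3 CPM in control libraries. None of these 3 overlapped between groups in scaled reads, the values by which they were picked. Their log2 fold changes were -0.74, -0.65 and -0.59, with limma adjusted p-values of 0.044, 0.042 and 0.038. Without batch 1 limma called 0 of 583 long models and 4 of all 15983 genes, with 154 and 2849 at an unadjusted p below 0.05. Without batch 2 it called 0 long models and 0 of all genes, with 127 and 2836 at that unadjusted p. Without batch 3 the fit called 7 long models (1.20%, against 0.557% of all genes), 3 of them among the 10.

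**Figure D2:**
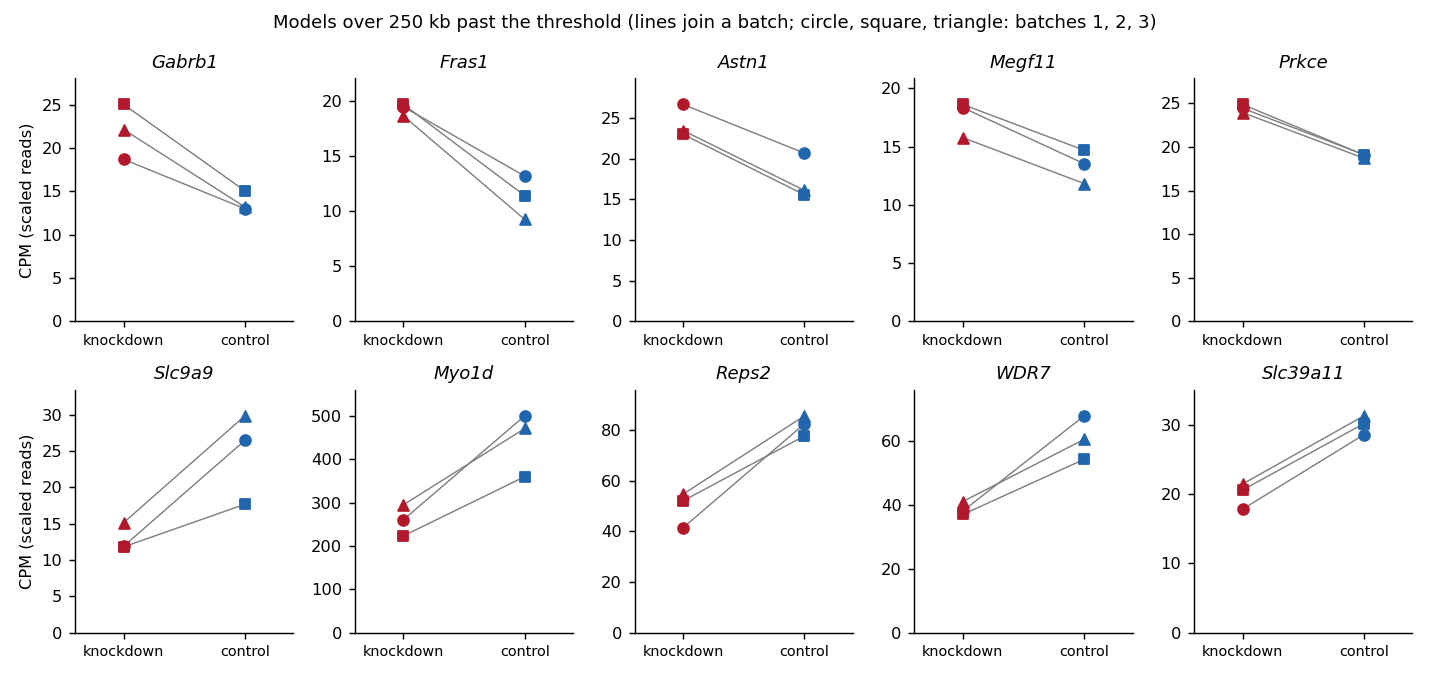
Scaled reads (CPM) of the 10 long genes past the threshold, knockdown at the left and control at the right of each panel, with a line for each batch. In the upper row every knockdown point lies above every control point, and in the lower row below. The genes were picked by a test on these same values, so the gap is largely built in. Over all genes tested such a gap was seen upward in 3.99% and downward in 4.08%.

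Beyond the single genes, the long models as a group were shifted upward in knockdown libraries, by a small amount. The log2 fold change was above 0 in 403 of 583 (69.1%), against 50.8% of all genes tested, and its median was 0.12, against 0.00 over all genes. In scaled reads, all knockdown libraries lay above all control libraries for 44 long models (7.55%, against 3.99% of all genes) and below them for 9 (1.54%, against 4.08% of all genes). The median log2 ratio of knockdown over control was 0.04, 0.11 and 0.21 in batches 1, 2 and 3, against 0.02, -0.01 and 0.00 over all genes. The shares of long models above 0 were 55.7%, 69.5% and 71.9%. Batch 1 thus showed the smallest shift and batch 3 the largest, and without batch 3 the median of the fit was 0.07.

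The shift was the upper end of a trend over all lengths. The median log2 fold change was -0.06 for 5434 genes under 10 kb, -0.01 for 4424 genes of 10 to 30 kb, 0.05 for 4052 genes of 30 to 100 kb and 0.10 for 1490 genes of 100 to 250 kb. It was 0.12 for the 463 long models up to 500 kb and 0.17 for the 114 up to 1000 kb. The 6 models over 1000 kb had a median of -0.02, too few to place. The step across 250 kb was no greater than the steps below it. Across all genes tested the rank correlation of the log2 ratio with span was 0.03, 0.27 and 0.25 in batches 1, 2 and 3, and with exonic length 0.04, 0.37 and 0.34. Among the long models alone, the correlation with span was -0.01, 0.05 and 0.07, and with exonic length 0.04, 0.12 and 0.36. These are descriptions across genes of the same libraries.

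**Figure D3:**
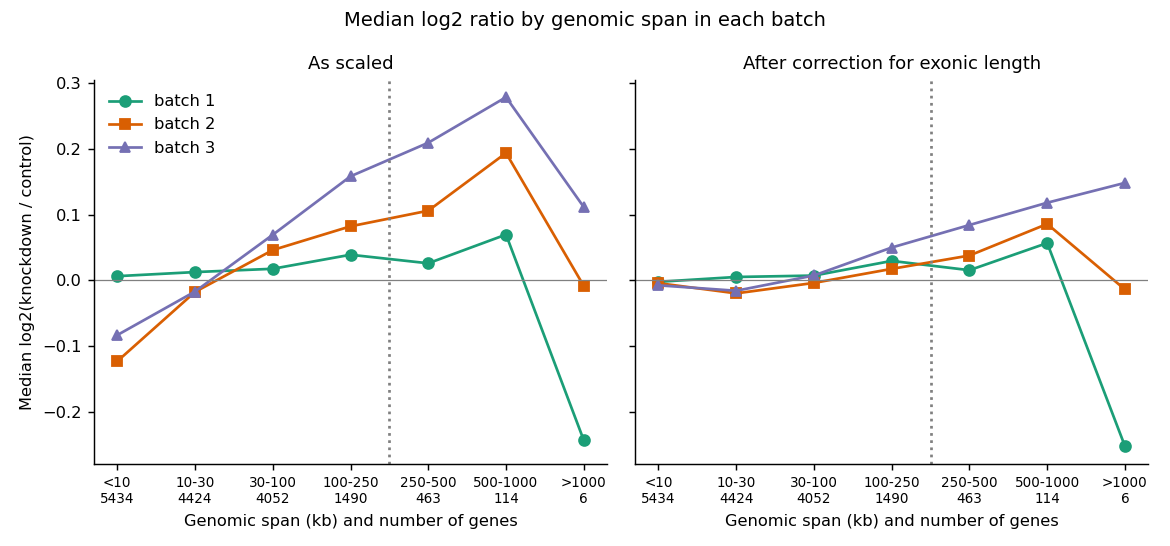
Median log2 ratio of knockdown over control for genes grouped by genomic span in kb, 1 line for each batch, with the number of genes under each class and a dotted line at 250 kb. Batches 2 and 3 climb with span at the left, batch 1 hardly does, and the slopes are flatter at the right after each library was corrected for exonic length.

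Exonic length ran along with span (rank correlation 0.68 over all genes, 0.09 within the long models), and the shift was smaller after each library was corrected for it. The median of the long models was then 0.07 in place of 0.12, and 0.02, 0.05 and 0.10 in batches 1, 2 and 3. The rank correlation of the fold change with span over all genes was 0.03 in place of 0.24. At matched exonic length some of the difference between long models and other genes was still seen. With 4 to 8 kb of exons the median log2 fold change was 0.17 for 218 long models and 0.09 for 2729 other genes. With 2 to 4 kb it was 0.10 for 194 long models and 0.03 for 5273 others, and with up to 2 kb -0.03 for 76 and -0.07 for 6917. Over 8 kb the values were 0.17 for 95 long models and 0.14 for 481 others. In batches 2 and 3 the long models had the higher median log2 ratio in each class. Batch 1 differed, with -0.06 for long models and 0.00 for others up to 2 kb, and 0.02 and 0.01 over 8 kb. After a correction for genomic span the median of the long models was 0.01, as that correction is built to give.

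The level of the long models also varied between libraries of the same treatment. Relative to the 6-library mean, the median log2 deviation of the long models was -0.03, 0.23 and 0.01 in knockdown libraries 1, 2 and 3, and -0.04, 0.10 and -0.17 in control libraries. Batch 2 was high in both treatments, the control of batch 3 was lowest, and the groups overlapped. Between controls, the median log2 ratio of the long models was 0.17 for batch 2 over batch 1, -0.13 for batch 3 over batch 1 and -0.29 for batch 3 over batch 2. Between knockdown libraries it was 0.26, 0.03 and -0.22 for the same pairs. The rank correlation of the control ratio with span over all genes was 0.12, -0.26 and -0.26 for these pairs, beside the 0.03, 0.27 and 0.25 of knockdown over control in batches 1, 2 and 3. The depth of the libraries, given above, also differed between treatments, and its part in the trend was not tested.

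**Figure D4:**
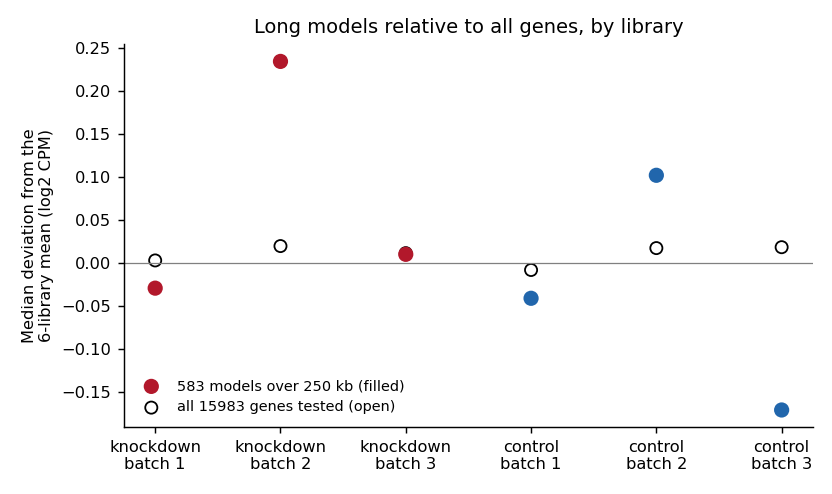
Median log2 CPM of the 583 long models in each library relative to the mean of the 6 libraries (filled points, knockdown in red and control in blue), beside the median of all 15983 genes tested (open circles). The filled points range from -0.17 in control batch 3 to 0.23 in knockdown batch 2, and the open circles stay near 0.

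The spread between batches was wider for long genes. The median SD of log2 CPM was 0.32 among knockdown libraries and 0.35 among control libraries for the long models, against 0.29 and 0.30 for all genes. Both libraries of batch 2 lay above all of the others for 240 long models (41.2%, against 30.6% of all genes) and below them for 89 (15.3%, against 27.8%). Pde10a, a phosphodiesterase of cyclic nucleotides, had 16.9, 57.4 and 14.6 RPKM in knockdown libraries, against 21.2, 54.6 and 17.5 RPKM in control libraries. Both batch 2 libraries stood far above the others, and the treatments overlapped. Within batches 1, 2 and 3 the log2 ratio of scaled reads was -0.33, -0.10 and -0.08, and the fit gave -0.17 (limma adjusted p = 0.20). After the correction for exonic length Pde10a passed the threshold, at -0.28 (limma adjusted p = 0.042), and after that for span as well (limma adjusted p = 0.049). Gria3, a glutamate receptor subunit, behaved alike at a lower level, with 3.78, 10.5 and 4.34 RPKM in knockdown and 3.97, 8.54 and 3.75 RPKM in control libraries. The absolute log2 fold change exceeded the SD between controls in 146 of 583 long models (25.04%), against 23.55% of all genes.

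By role, each list had a median above 0 and few or no single calls. Over all 583 long models the median was 0.12, 69.1% were above 0 and 1.72% were called. Of all genes tested 50.8% were above 0 and 1.71% were called, so the counts below are to be read beside these shares. Of 36 adhesion molecules tested 0 were called in limma, 25 had a log2 fold change above 0 and the median was 0.18. Nrcam, Cadm1 and Ncam1, adhesion molecules of the immunoglobulin superfamily, were the most abundant. Cadm1 had 21.2, 20.9 and 20.4 RPKM in knockdown libraries, against 20.0, 19.3 and 18.7 RPKM in control libraries. The groups lay apart by a narrow margin, and the gene did not pass the test (log2 fold change 0.13, SE 0.05, limma adjusted p = 0.18). Of 15 axon guidance and growth factor receptors and ligands 0 were called, 13 were above 0, and the median was 0.23. Robo1, a receptor for Slit proteins, had 33.7, 35.2 and 28.8 RPKM in knockdown libraries, against 26.3, 28.9 and 17.8 RPKM in control libraries. Its groups overlapped by a hair in RPKM (limma adjusted p = 0.10).

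Of 25 ion channels and subunits 0 were called, 18 were above 0 and the median was 0.17. Cacna2d1, an auxiliary subunit of voltage-gated calcium channels, was the most abundant, with 65.8 ± 11.2 RPKM in knockdown libraries and 61.6 ± 10.7 RPKM in control libraries (SD, n = 3 each). Its log2 fold change, which comes from scaled reads, was -0.01. Kcnma1, the large-conductance potassium channel, was at 21.1 ± 5.61 and 19.9 ± 8.05 RPKM in knockdown and control libraries. Cacna1d, a pore subunit of L-type calcium channels, had 9.85, 23.3 and 9.18 RPKM in knockdown libraries, against 11.6, 19.4 and 5.92 RPKM in control libraries, again with batch 2 highest. Of 11 neurotransmitter receptors and their partners Gabrb1 was called, 10 were above 0 and the median was 0.20. The scaffold gephyrin, Gphn, was at 6.85 ± 0.739 and 5.88 ± 0.433 RPKM in knockdown and control libraries.

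The correction for exonic length lowered the median of every role list. It went from 0.18 to 0.11 for adhesion molecules, from 0.24 to 0.14 for transcription and chromatin factors and from 0.16 to 0.07 for beta cell function. Of 23 enzymes of cyclic nucleotide, phospholipase and kinase signalling Prkce was called, 14 were above 0 and the median was only 0.04, or -0.06 with the correction for exonic length. Pip5k1b, a phosphoinositide kinase, was at 19.9 ± 0.26 and 17.8 ± 0.662 RPKM in knockdown and control libraries.

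Of 23 genes of vesicles and secretion 0 were called, 17 were above 0 and the median was 0.11, or 0.00 with the length correction. Cadps, which primes dense-core granules, had 29.3, 42.2 and 32.7 RPKM in knockdown libraries, against 28.7, 38.0 and 26.1 RPKM in control libraries. The groups overlapped, as they did for Nbea, a protein of membrane traffic, at 21.4 ± 1.62 and 22.9 ± 9.54 RPKM in knockdown and control libraries. From scaled reads the log2 fold change of Nbea was 0.06. Of 25 genes listed for beta cell function 0 were called, 17 were above 0 and the median was 0.16. Slc8a1, the sodium-calcium exchanger, was at 39.9 ± 2.97 and 44.3 ± 6.13 RPKM in knockdown and control libraries (limma adjusted p = 0.28).

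In the nucleus, of 31 transcription and chromatin factors 0 were called, 26 were above 0 and the median was 0.24. Tcf12, a helix-loop-helix factor, had 65.6, 70.5 and 67.7 CPM in knockdown libraries, against 55.4, 59.3 and 54.8 CPM in control libraries. The groups lay apart, with a log2 fold change of 0.27 (SE 0.05) that missed the threshold (limma adjusted p = 0.062). Of 5 RNA-binding proteins 0 were called and 3 were above 0. Msi2, a regulator of translation, Celf2 and Celf4, regulators of splicing, had log2 fold changes of 0.09, -0.09 and 0.38, with limma adjusted p-values of 0.309, 0.405 and 0.0723.

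Of 35 cytoskeletal and scaffold proteins Myo1d was called, 26 were above 0 and the median was 0.20. Map2 had 50.8, 76.9 and 46.7 RPKM in knockdown libraries, against 41.7, 54.8 and 35.3 RPKM in control libraries, with batch 2 highest in each group (log2 fold change 0.36, SE 0.06, limma adjusted p = 0.056). Map2 passed the threshold after the correction for exonic length, at 0.27 (limma adjusted p = 0.037), but not after that for span (limma adjusted p = 0.054). Fmn2, an actin nucleator, was at 18.5 ± 4.51 and 16.9 ± 3.51 RPKM in knockdown and control libraries. Of 16 matrix, proteoglycan and large surface proteins 0 were called, 9 were above 0 and the median was 0.08, or -0.05 with the correction for exonic length. Ghr, Fndc3b, a fibronectin-repeat protein, and Ext1, an enzyme of heparan sulfate synthesis, had log2 fold changes of -0.31, 0.07 and -0.19. Ext1, like Ghr, passed the threshold after the correction for span (limma adjusted p = 0.048) but not after that for exonic length (limma adjusted p = 0.070). Of 14 genes at common fragile sites, regions that break under replication stress, 0 were called and 9 were above 0. The glycosyltransferase Large, the exocyst subunit Exoc4 and the synaptic scaffold Dlg2 had log2 fold changes of 0.14, 0.11 and 0.26. All of 6 long genes reported as Nova targets in mouse brain were above 0, with 0 calls. Their median was 0.26, or 0.17 with the correction for exonic length. Epb41l3, a membrane skeleton protein, was at 0.33 and Plcb4, a phospholipase, at 0.00, with limma adjusted p-values of 0.11 and 0.99. Plcb4 was barely above 0, with log2 ratios of -0.29, -0.04 and 0.37 in batches 1, 2 and 3. With the correction for exonic length it was at -0.08.

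**Figure D5:**
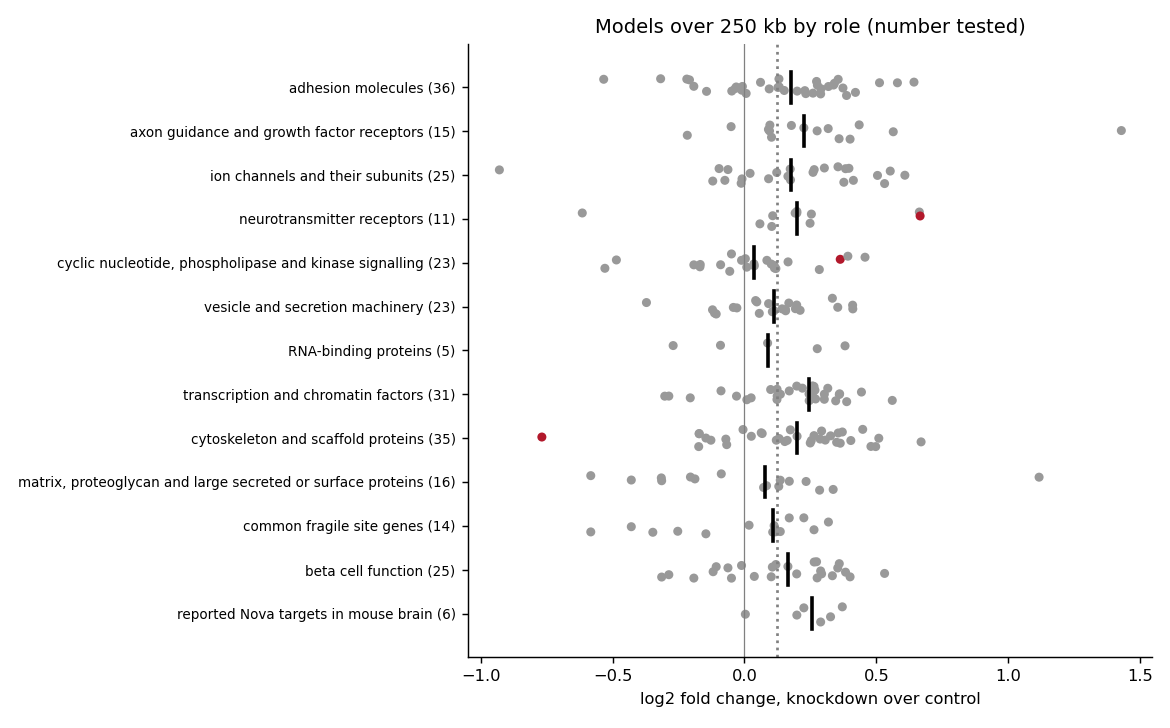
Log2 fold changes of the long genes tested, 1 row for each of 13 role lists with the number tested. Each point is a gene, red where it passed the threshold, the black bar is the list's median, and the dotted line is the median of all 583 long models at 0.12. The medians lie between 0.04 and 0.26, and each list spreads on both sides of 0 except the reported Nova targets.

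Because Nova1 acts on splicing, transcript shares within the long genes were compared as well. Of 1829 transcripts of long models 5 changed their share at an adjusted p of 0.05 (0.273%, against 0.302% of all 31429 transcripts tested), in 3 genes. A test per gene called 3 of 461 long models (0.651%, against 0.702% of all 9538 genes). Ndst4, an enzyme of heparan sulfate modification, had a transcript of 14 exons at 100% of its RPKM in all knockdown libraries, against 7.17%, 41.3% and 14.2% in control libraries. A form of 13 exons that was listed at 0 in all knockdown libraries took the rest in control libraries (limma diffSplice adjusted p = 0.035 for each). Kazn, a protein of cell junctions, had a form with 37.1%, 36.4% and 16.8% in knockdown libraries, against 96.9%, 96.2% and 63.5% in control libraries (limma diffSplice adjusted p = 0.014). A sister form of Kazn had 37.7%, 24.8% and 29.7% in knockdown libraries and was listed at 0 in all control libraries. Ssh2, a phosphatase of the actin regulator cofilin, had a form of 112 kb listed at 0 in all knockdown libraries, against 20.3%, 14.3% and 29.0% in control libraries (limma diffSplice adjusted p = 0.040). Each of these genes stood at 0.44 to 2.84 RPKM on average, and a value listed at 0 can be a failed estimate where forms share most of their exons. With any 1 batch left out, 0 transcripts of long models passed the threshold. Over all 31429 transcripts 2, 0 and 0 passed without batches 1, 2 and 3.

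Whether reads moved between transcripts that cover much or little of a gene was asked with the mean span of its transcripts, weighted by RPKM. Of 516 long models tested 0 changed in limma (0.0391% of all 10224 genes did), and 23 had an unadjusted p below 0.05 (4.46%, against 4.61% of all genes). The smallest p was that of Kif16b, a kinesin, named after its value was seen, with 255, 262 and 262 kb in knockdown libraries, against 266, 273 and 272 kb in control libraries (log2 fold change -0.06, limma adjusted p = 0.34). The groups were apart by a few percent of the span.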

How the data were processed

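Libraries of poly(A) RNA were made with products of 200 bp cut from a gel, per the labels' protocols, and aligned with TopHat to Rnor_5.0, per the submitters' processing notes. For each transcript of an assembly the authors deposited estimated reads, a length and an RPKM, per the file contents. Which program divided reads among transcripts, and whether it used strand, is not given in the sources used here.

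Reads and RPKM were added up per model, for 24579 models. Of 5699 models that the assembly names by an identifier, 518 took a symbol through a RefSeq table on GRCr8, used for names only. Reads are held as text of estimated values and not as a count column, so limma was used and no count model. Library sizes were scaled with TMM, trimming 30% of M and 5% of A. A gene entered with at least 15 reads in total and, in 3 or more libraries, a level worth 10 reads at median depth. This held for 15983 genes, among them 583 of the 695 long models. This filter is per library size, so 9 of the 591 models did not meet it and 1 further model did. The model in limma 3.58.1 under R 4.3.3 used voom weights, treatment and a batch term, with 2 residual degrees of freedom. Benjamini-Hochberg adjustment ran over all genes, with a threshold of 0.05. Printed CPM are the scaled reads of that fit. For transcript shares, diffSplice in limma was run after voom at the transcript level, and weighted spans went into limma as log2 values. These fits were tested on simulated data. The length correction subtracts from each library a lowess curve (span 0.3) of its deviation on log2 exonic length.

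Titles number the batches, and each batch pairs a knockdown with a control library. Deviations from the group means correlated at 0.38, 0.72 and 0.55 between treatments in batches 1, 2 and 3. The long models, the 14 role lists and the 8 marker lists were chosen with earlier results of these data known. Named genes are Nova1, called members with 1 direction in 3 batches, the 5 smallest p-values in each direction, the 8 greatest spans, the 8 highest RPKM, the 3 highest RPKM in each role list, the 3 models on each side of the limit, and members with a called transcript share or span. Some genes and 1 role list that this takes in are not reported here. Any other gene was picked with its values in view.

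Alternatives covered the batch term, each batch left out, library totals or median of ratios scaling, filters (none, or 5 times as strict), log2(RPKM + 0.1) and log2(RPKM + 1) in limma-trend, the length correction, and other definitions of a long model. Added after seeing the data were a correction for span, a definition by at least 50% of RPKM or by an annotated transcript over 250 kb, and the trend under these settings.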

Additional observations from a re-analysis of the deposited data

How the results depend on the processing

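The count of 10 called long models, beside 274 over all genes, was 0 without the batch block, which pairs the libraries. Over all genes it was then 0 as well. Without replicates 1, 2 and 3 it was 0, 0 and 7, against 4, 0 and 89 over all genes. It was 5 with library totals alone (0.858%, against 0.569% of all genes) and 4 with a filter 5 times stricter (0.769%, against 0.847%). With limma-trend on log2(RPKM + 0.1) and on log2(RPKM + 1) it was 0, as it was over all genes. There 134 and 140 long models had an unadjusted p below 0.05, against 3111 and 3193 of all genes. It was 28 with the correction for exonic length (4.80%, against 3.89% of all genes) and 22 with that for genomic span (3.77%, against 2.48%). For spans over 500 kb it was 1 of 120 (0.833%) and over 150 kb 23 of 1245 (1.85%), against 1.71% of all genes. It was 10 with median of ratios scaling (1.72%, against 1.56% of all genes) and 8 without a filter (1.20%, against 0.860%). Under the remaining definitions of a long model it was 8 to 10 (1.72% to 2.22%, against 1.71%). The cause of these changes was not tested, except that the last definitions change the number of genes. The 5 called transcripts were 8 without the block (0.437%, against 0.340% of all transcripts) and 13 on log2(RPKM + 0.1) (0.711%, against 0.525%). They were 0 with the stricter filter (against 0.159%) and 0 without any 1 replicate, where 0 to 2 were called over all transcripts. The weighted span gave 0 under each of its alternatives. The median of 0.12 kept its sign in each alternative run and moved outside the spread between batches only with the correction for span, to 0.0122. The rank correlation of 0.24 with span was 0.0335 with the correction for exonic length and 0.00101 with that for span, which is built to remove it, and 0.17 to 0.31 without any 1 replicate. None of the 10 called genes changed sign under 12 alternatives. Of the single values this gives, 46 still passed the threshold and 74 did not. With 2 residual degrees of freedom and adjusted p-values just under the threshold, small changes of setting decide a call. Genes near the floor rest on few reads, as Cdh13 does with 8 to 38 per library.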
